A study of Mus musculus with 18 samples.

Results

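Fxyd2, Fxyd3 and Fxyd6, which encode 3 of the small FXYD membrane proteins that tune the sodium pump, together with the pump subunit gene Atp1b1 and the cotransporter gene Slc12a2, were followed through mouse mammary epithelium. These 5 genes, of 31053 counted, were picked from a list made with earlier results of the same data known, for the question of which FXYD gene goes with which epithelial lineage and how Fxyd6 in basal cells and Fxyd2 in mature luminal (ML) cells stood from the adult gland through pregnancy and after it. The levels of the 5 genes between lineages, and those stage series of basal Fxyd6 and ML Fxyd2, are therefore descriptions without a test. Tests are given for the other stage differences of the 5 genes and for 48 listed transport genes, the 5 included. The lists too were made with earlier results of these data known.

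The sodium pump (Na,K-ATPase) pushes sodium out of the cell and potassium in, and is built from a catalytic alpha subunit and a beta subunit that carries it to the membrane. FXYD proteins span the membrane once, sit beside the pump and change its affinity for sodium or its rate, with different family members serving different tissues. The gradient that the pump makes drives other carriers, among them the cotransporter encoded by Slc12a2 (NKCC1), which brings sodium, potassium and chloride into secretory epithelial cells, and milk is kept low in sodium relative to plasma.

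Droplet single-cell RNA counts came from 17 mammary libraries of female mice or embryos, and a library of embryonic skin was set aside. Of these, 6 came from C57BL/6 animals: mammary rudiments of Lgr5-GFP embryos at E18.5, the gland at postnatal day 5 and at 2.5 weeks (pre-puberty), terminal end buds and ducts of 5-week-old Ecadherin-GFP females dissected under the reporter's light, and the 10-week-old adult gland. SWISS mice gave 1 adult library of the same age. FVB/NJ mice without further alleles gave 3 adult libraries at 10 weeks (A10, P7 and D12), 2 at pregnancy day 12.5 (H and G), 2 at pregnancy day 18.5 (F4 and B4), 2 at lactation day 10 (F11 and D6) and 1 at 3 weeks post-involution. Each library pooled glands of several animals, adults were not staged for estrus, and sorting had removed CD31-, CD45- and Ter119-positive cells. The paper lists FVB/N adult and post-involution samples as processed concurrently, without naming the adult library. It names no pregnancy or lactation library with them, so stage cannot be told apart from processing in the FVB/NJ series. Library totals ran from 9920346 to 93234616 unique molecular identifiers (UMIs), 123574 cells passed the study's limits, and median depth ran from 2498 (P7) to 21609 UMIs per cell.

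FXYD genes are named for a short amino acid motif that opens their shared stretch before the membrane span. The coding sequences around it are shown because the 3 FXYD genes are read out separately throughout, and the capitals mark the codons of the signature motif with its leading proline. Fxyd4 is added because it was called higher in ML cells at pregnancy day 12.5. All come from GENCODE M21 transcripts of build GRCm38, each running 5′ to 3′ in the annotated frame.
Fxyd2: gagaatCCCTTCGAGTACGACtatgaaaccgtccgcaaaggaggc
Fxyd3: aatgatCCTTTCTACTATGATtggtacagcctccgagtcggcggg
Fxyd6: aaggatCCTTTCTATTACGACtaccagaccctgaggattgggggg
Fxyd4: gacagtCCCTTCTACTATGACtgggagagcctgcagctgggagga
Over these 45 bases Fxyd2 and Fxyd3 shared 25, Fxyd2 and Fxyd6 shared 29 and Fxyd3 and Fxyd6 shared 30. Fxyd2 (ENSMUSG00000059412) lies at chr9:45399669-45410278 on the plus strand, 3509 bases downstream of the end of Fxyd6 (ENSMUSG00000066705, chr9:45370185-45396159, also plus). Fxyd3 (ENSMUSG00000057092) lies at chr7:31068172-31076704 and Atp1b1 (ENSMUSG00000026576) at chr1:164437109-164458355, both on the minus strand. Whether reads running past the end of Fxyd6 were counted for its neighbour was not tested.

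Cells were assigned to a lineage by scores over fixed markers, of which none is a member: 44495 were basal (myoepithelial), 39934 luminal progenitor (LP) or alveolar, and 21978 ML. The E18.5 cells were kept as 1 class of 5362 epithelial cells. A further 7705 carried other cell types' markers and were left out, and 11993 cells (9.71%) lay near a limit of the assignment. That share was highest in lactation (22.0% in F11 and 31.5% in D6) and at postnatal day 5 (28.5%). In the pregnancy libraries it was 2.52% (B4) to 6.75% (F4), so classes were less sharply set in lactation. In all 16 libraries after birth each class held UMIs of 9 of 9 basal, 7 of 7 LP or 10 of 10 ML markers. The same markers assigned the cells, so this is no separate check of the class names. The ML class was small from pregnancy to lactation, with 131 to 288 cells per library, while adult FVB/NJ libraries held 997 to 3349. Clusters made without the assignment held 79.3% or more of each class in every library except terminal end bud basal cells, at 61.2%. The study's limits kept 48.6% (F11) and 68.9% (D6) of lactation barcodes and 86.2% or more elsewhere. The 136 pairs of mammary libraries shared 5076 barcodes, at most 239 in a pair, but unevenly. Adult SWISS and the C57BL/6 libraries other than E18.5, end buds and ducts shared at most 7 with any library outside this set. Pairs within the set shared 2 to 39, while A10 shared 35 with terminal end buds and 172 with H. The C57BL/6 age series given below crosses the edge of this set, and the part of that in its levels was not tested. Milk genes made up 78.8% and 80.8% of lactation LP counts. Replicate P7 stood apart with 14-base in place of 16-base barcodes, the shallowest cells and a median mitochondrial share of 0.404%, so calls of the 5 genes that changed when it was left out are given both ways. Levels are counts per 1000000 UMIs outside 11 milk genes (CPM) in the summed cells of a class, and intervals on them are exact 95% Poisson intervals that cover counting error only.

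Fxyd2, the gamma subunit of the pump best known from kidney tubules, was highest in ML cells among the lineages in 16 of 16 libraries. Its interval lay above those of both other classes in all 16, and the ratio to the next class had a median of 49.2 (2.57 to 283). In C57BL/6 ML cells it stood at 19.99 CPM at postnatal day 5, 427 before puberty, 25.6 in terminal end buds, 234 in pubertal ducts and 737 in the adult. Adult SWISS ML cells had only 6.28 CPM (interval 5.50 to 7.15). The 3 adult FVB/NJ libraries were themselves spread over a wide range, with 37.8 (A10), 120 (P7) and 543 CPM (D12). The lineage bias was thus seen at every age with separate lineages, while the level within adult ML cells differed widely between single libraries and replicates.

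ML Fxyd2 was higher in each library of pregnancy and lactation than in each adult FVB/NJ library. How many of all genes separate in this way was not counted. It stood at 1233 (H) and 1489 CPM (G) at pregnancy day 12.5, at 4682 (F4) and 4751 CPM (B4) at day 18.5, and at 4440 (F11) and 10612 CPM (D6) in lactation. The single post-involution library had 1467 CPM, above all 3 adult values and within the range of the pregnancy day 12.5 pair. Stage means were 234 ± 271 CPM in adults (SD, n = 3), 1361 ± 181 at day 12.5, 4717 ± 49.0 at day 18.5 and 7526 ± 4364 in lactation (n = 2 each). The fitted log2 difference from adult to day 12.5 was 2.51 and from day 12.5 to 18.5 it was 1.59. These are descriptive values of the contrast by which the gene was picked, and no test. In lactation F11 lay below both day 18.5 libraries and D6 above them. The log2 step from day 18.5 was 0.86, or 0.19 without D6 and 1.29 without F11. It was −0.74 with cells of at least 1000 genes, a limit that left D6 with fewer than 20 ML cells and so out of that fit. Without D12, the adult library with the highest level, the step from adult to day 12.5 was 4.17. In ML cells 4.08% of 8752 genes were called higher and 3.05% lower at day 12.5 than in adults, and 0% either way from day 12.5 to 18.5.

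**Figure D1:**
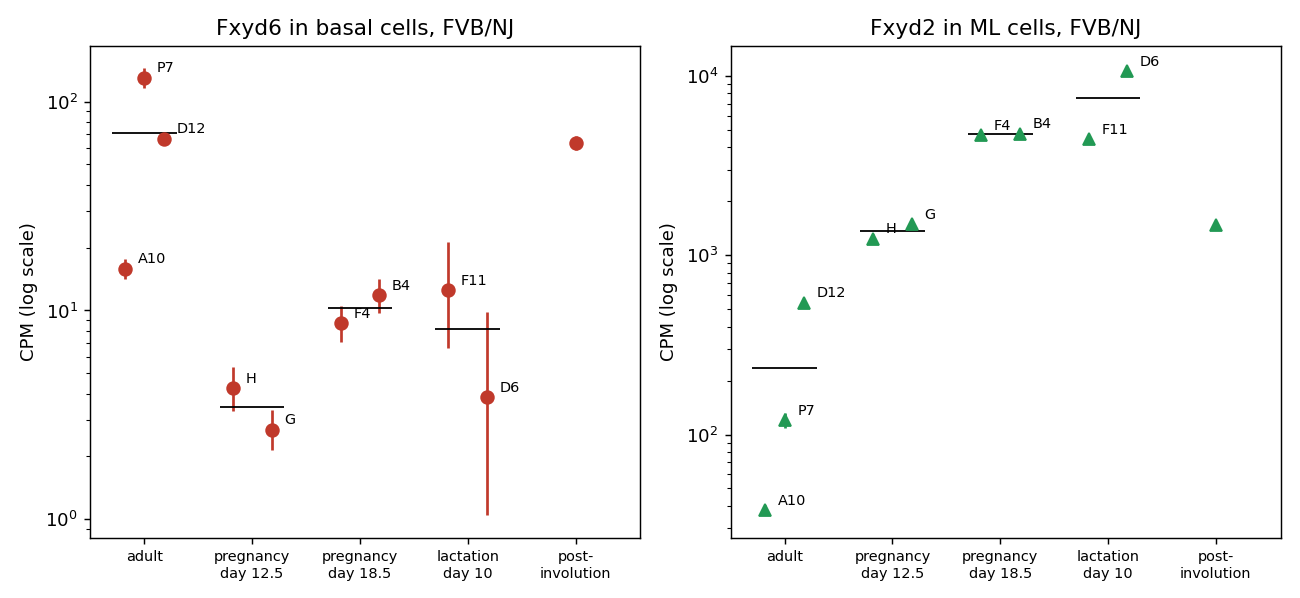
Level of Fxyd6 in basal cells (left) and Fxyd2 in ML cells (right) in each FVB/NJ library, in CPM outside the milk list on log axes, with exact 95% Poisson intervals and the stage mean as a black line. Basal Fxyd6 lay between 2.69 and 12.5 CPM in the 6 pregnancy and lactation libraries and between 15.8 and 130 in the adults, while ML Fxyd2 lay between 1233 and 10612 against 37.8 to 543.

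The same counts were also read per cell, as a description of the same contrast. To compare libraries at one depth, cells were thinned to 1000 UMIs outside the milk genes, and shallower cells were left out (0 to 32 ML cells per FVB/NJ library). The share of ML cells with an Fxyd2 UMI was then 3.04% (A10), 8.502% (P7) and 28.8% (D12) in adults, where the unthinned shares were 8.72%, 14.8% and 65.8%. It was 65.3% (H) and 69.3% (G) at pregnancy day 12.5, and 96.4% (F4) and 92.5% (B4) at day 18.5. Lactation ML cells had 80.9% (F11) and 98.5% (D6), and post-involution cells 60%. Most ML cells of every pregnancy and lactation library thus carried the transcript at this depth, against a minority in each adult library.

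**Figure D2:**
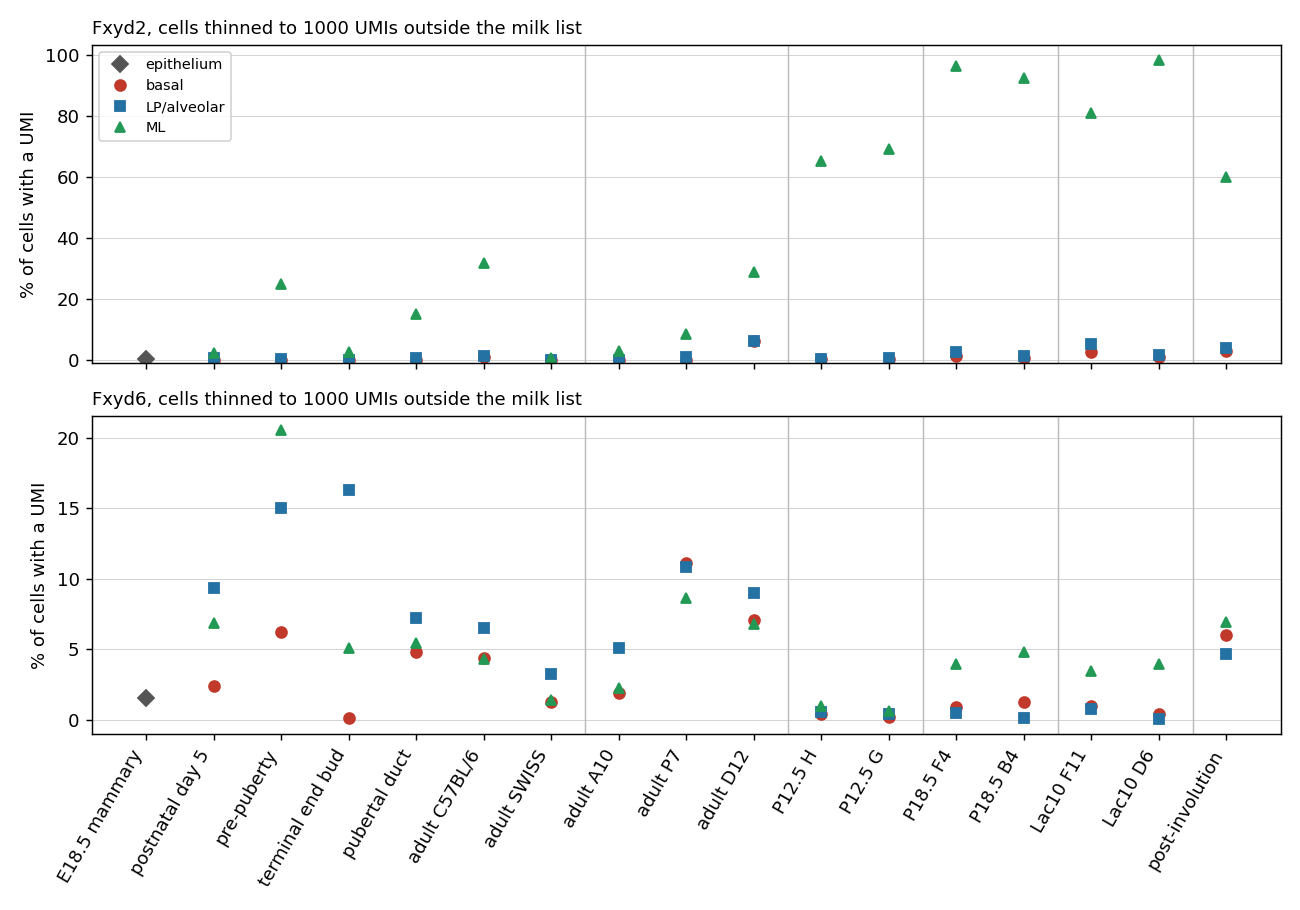
Share of cells with at least 1 UMI of Fxyd2 (top) and Fxyd6 (bottom) after thinning each cell to 1000 UMIs outside the milk list, in percent, for each library and class. ML Fxyd2 stands at 65.3% to 98.5% in the 6 pregnancy and lactation libraries and between 3.04% and 28.8% in adult FVB/NJ, while Fxyd6 reaches at most 20.5% in any class and library.

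Outside ML cells Fxyd2 was scarce, and part of what was counted there cannot be told apart from free ML transcripts or from mixed droplets. Basal cells had 1.04 (A10), 0.377 (P7) and 65.0 CPM (D12) in the adult, 5.08 (H) and 7.67 (G) at pregnancy day 12.5, 27.4 (F4) and 15.0 (B4) at day 18.5, and 62.4 (F11) and 56.5 (D6) in lactation. In D12 those 65.0 CPM were 11.97% of that library's ML level, and LP cells, with 78.6 CPM, were at 14.5%, while the 10 ML markers summed to 6.71% and 8.51% of their ML level in the same 2 classes. The share of Fxyd2 was above that of the markers in 10 of 32 sums of basal or LP cells, among them adult SWISS basal (17.6% against 1.41%) and LP cells (8.57% against 2.19%) and P7 LP cells (17.4% against 4.61%). In the 6 pregnancy and lactation libraries basal and LP cells stood at 0.315% to 2.09% of the ML level, beside 1.32% to 14.3% for the ML markers. After thinning, 6.41% of D12 basal cells (median depth 4480 UMIs) and 0.0765% of A10 basal cells (3892 UMIs) had a UMI. No stage difference of Fxyd2 in basal or LP cells was called (adjusted p = 0.17 to 0.877 over both classes and the 3 stage steps, edgeR), and the adult mean of each rested mostly on D12. Without A10 the LP difference at day 12.5 was called lower (log2 −3.22, adjusted p = 0.0283), as were 7.57% of genes.

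Fxyd6, known from the brain and inner ear, did not mark the basal lineage. It was highest in LP cells in 7 libraries, in ML cells in 8 and in basal cells in 1, P7, where its basal and LP intervals overlapped (130 and 121 CPM). Up to the adult stage the lead of LP cells held in 7 of 9 libraries, among them terminal end buds with 163 CPM in LP, 48.9 in ML and 1.42 in basal cells. That low basal value (interval 0.710 to 2.54, 11 UMIs) contrasted with 38.3 CPM in basal cells of the ducts processed alongside, but the end bud basal class was the one least matched by clustering. All 7 libraries from pregnancy onwards had their highest level in ML cells, with intervals apart from the other classes in F4, B4 and D6 only.

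Basal Fxyd6 was lower in each pregnancy and lactation library than in each adult FVB/NJ library. How many of all genes separate in this way was not counted here either. The adults had 15.8 (A10), 130 (P7) and 66.6 CPM (D12), with a mean of 70.8 ± 57.2 (SD, n = 3). Pregnancy day 12.5 had 4.25 (H) and 2.69 (G), day 18.5 had 8.68 (F4) and 11.8 (B4), and lactation had 12.5 (F11) and 3.83 CPM (D6). The lactation values rested on 13 and 4 UMIs. Post-involution basal cells stood at 63.3 CPM (interval 58.4 to 68.4), inside the adult range. The paper names adult and post-involution cells as processed together, and stage cannot be told apart from processing here. Without P7 the adult mean was 41.2 ± 35.9 (n = 2). The fitted log2 difference from adult to day 12.5 was −4.16, or −3.52 without P7, and the step to day 18.5 was 1.41. These are descriptive values of the contrast by which the gene was picked, and no test. From day 18.5 to lactation the log2 difference was −0.23, a value that had the other sign without D6. Here 0.337% of 13350 genes were called higher and 0.397% lower in basal cells from adult to day 12.5, and 0% either way from day 12.5 to 18.5.

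The lower level at pregnancy day 12.5 was not particular to basal cells. In LP cells Fxyd6 went from 49.2 (A10), 121 (P7) and 93.9 CPM (D12) to 5.78 (H) and 4.86 (G). In ML cells it went from 22.8, 95.3 and 71.6 to 12.9 and 6.70 CPM, the last values resting on 10 (H) and 6 UMIs (G). Both falls passed the test, by 3.84 on the log2 scale in LP cells (SE 0.82, adjusted p = 0.0208) and by 2.66 in ML cells (SE 0.62, adjusted p = 0.0243, edgeR). Fxyd6 was picked for its course in basal cells of the same libraries, so these calls are not independent of that choice. Without P7 both were still called (−3.69, adjusted p = 0.0214, and −2.40, adjusted p = 0.0205), where 8.84% and 5.67% of genes were called lower. With all libraries, of 13947 genes tested in LP cells 5.69% were called lower and 5.05% higher. Either call was lost when H or G was left out (adjusted p = 0.185 and 0.191 in LP, 0.145 and 0.305 in ML), with the log2 difference between −3.95 and −2.28. At day 18.5 ML cells had 41.6 (F4) and 54.6 CPM (B4), within the adult ML range, whereas LP cells had 5.18 and 1.76. That ML step, 2.11 on the log2 scale (SE 0.65), was not called (adjusted p = 0.452), nor was the LP step (−0.57, adjusted p = 0.788), and the difference between classes was not tested. In lactation LP cells had 9.48 (F11) and 0.897 CPM (D6) and ML cells 22.8 and 43.9, on 11 UMIs each. Post-involution cells stood at 44.7 CPM in LP and 70.4 in ML.

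Fxyd3, a family member first described in mammary tumours, had the most UMIs of its family in basal and LP cells in each of the 16 libraries. LP cells had its highest level in 11 libraries and basal cells in 5: adult SWISS and the 4 libraries of pregnancy day 18.5 and lactation. In C57BL/6 LP cells it stood at 869 CPM at postnatal day 5, 3013 before puberty, 1438 in terminal end buds, 2260 in ducts and 2026 in the adult. ML cells had the lowest level in every library, from 82.2 (P7) to 660 CPM (pre-puberty). Fxyd2 was thus highest in ML cells, Fxyd3 in LP or basal cells, and Fxyd6 in no one lineage. Within ML cells Fxyd2 had the most UMIs of the family in 9 of the 16 libraries, and Fxyd3 in the other 7, all up to the adult stage (A10 and D12 among them).

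Whether the stage steps of Fxyd3 were called depended on 1 adult library, P7. LP cells had 1975 (A10), 346 (P7) and 2166 CPM (D12) in adults, 566 (H) and 583 (G) at pregnancy day 12.5, 289 (F4) and 262 (B4) at day 18.5, 752 (F11) and 587 (D6) in lactation and 1852 post-involution. Basal cells had 815, 156 and 1366 CPM in the adults in the same order, 375 and 333 at day 12.5, 403 and 402 at day 18.5, and 958 and 1218 in lactation. P7 was far below the other adults in every class, and below both day 12.5 libraries. With all libraries no step of Fxyd3 was called (adult to day 12.5: LP −1.33, adjusted p = 0.256, basal −1.09, adjusted p = 0.552, ML −0.85, adjusted p = 0.509). Without P7 the first step was called lower in all 3 classes (LP −1.83, adjusted p = 0.00419, basal −1.59, adjusted p = 0.0282, ML −1.36, adjusted p = 0.0254), in a fit that called 8.84% of LP, 1.33% of basal and 5.67% of ML genes lower there. The step into lactation was then called higher in LP (1.45, adjusted p = 0.0104) and basal cells (1.49, adjusted p = 0.0324), as were 4.94% and 1.69% of genes. The LP step from day 12.5 to 18.5 without P7 was −1.01 (adjusted p = 0.0395), where 3.42% of genes were called lower, against 0.129% lower and 0.717% higher with all libraries.

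**Figure D3:**
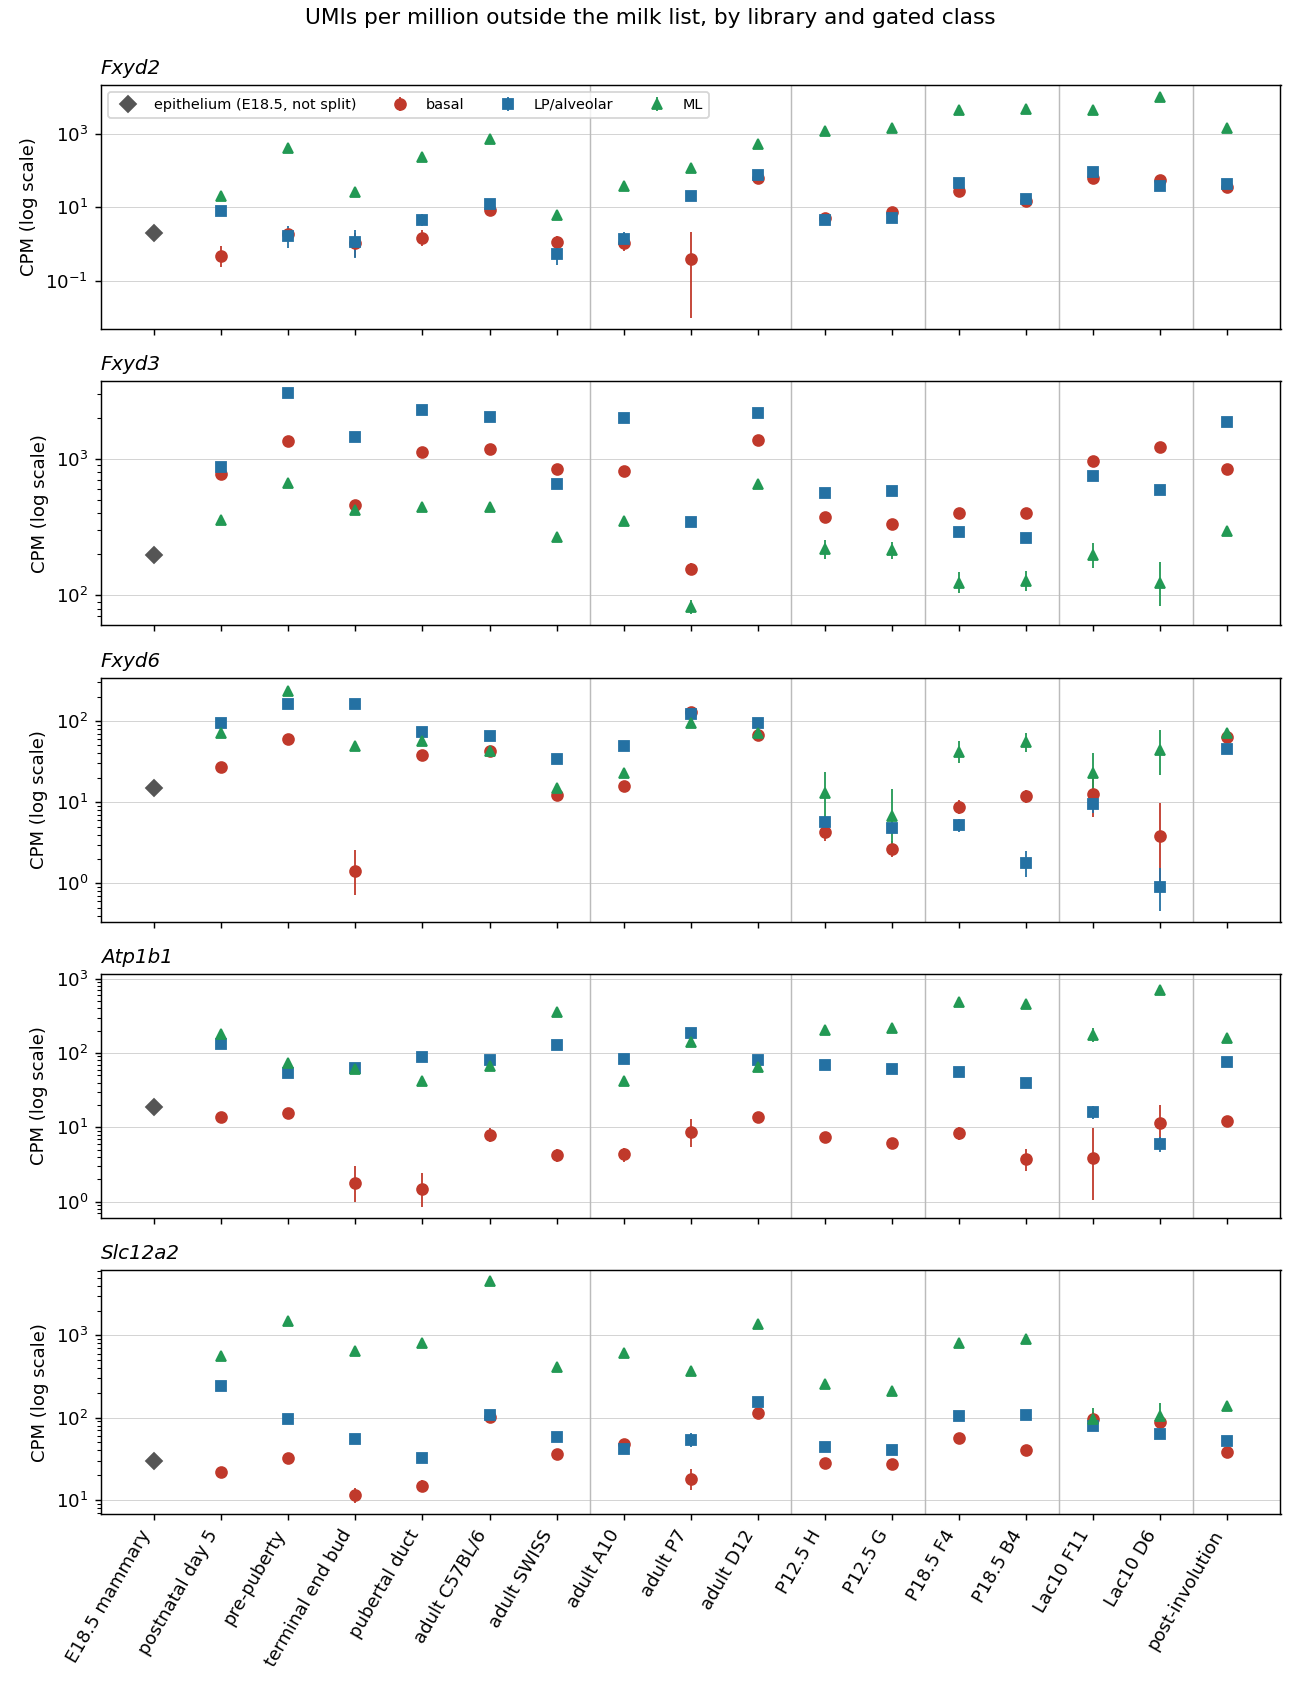
Level of each of the 5 genes, in CPM outside the milk list on log axes, in every mammary library, by class, with exact 95% Poisson intervals. Fxyd2 and Slc12a2 are highest in ML cells (triangles) in 16 of 16 libraries, Fxyd3 is highest in LP (squares) or basal cells (circles), and Fxyd6 and Atp1b1 change order between libraries.

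Atp1b1, which encodes a beta subunit that brings the pump to the membrane, was a luminal transcript. This holds for Atp1b1 alone and not for beta subunit genes as a group. Basal cells had 1.49 to 15.8 CPM in the 16 libraries, while the highest level lay in ML cells in 10 and in LP cells in 6, with intervals apart from the other classes in 15 of the 16. LP cells led in pubertal ducts (88.1 against 42.5 CPM in ML), adult C57BL/6 (81.4 against 66.6) and all 3 adult FVB/NJ libraries, and ML cells led at postnatal day 5, before puberty, in adult SWISS (359 against 128) and in every library from pregnancy onwards. ML cells had 42.4 (A10), 139 (P7) and 65.5 CPM (D12) in adults, 205 (H) and 219 (G) at pregnancy day 12.5, 489 (F4) and 450 (B4) at day 18.5, 176 (F11) and 711 (D6) in lactation and 158 post-involution. LP cells had 83.2, 186 and 79.7 CPM in the adults, 69.1 and 61.7 at day 12.5, 55.6 and 39.9 at day 18.5, and 15.9 (F11) and 5.90 (D6) in lactation. In FVB/NJ the classes stood in opposite order in adults and from pregnancy onwards. Adult and later ML values did not overlap, but the share of all genes that separate in this way was not counted.

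Neither series passed the test with all libraries. The ML step to day 12.5 was 1.42 on the log2 scale (SE 0.55, adjusted p = 0.157), and 1.83 without P7 (adjusted p = 0.0317), where 6.76% of genes were called higher. In LP cells the step from day 18.5 to lactation was −1.99 (SE 0.50, adjusted p = 0.0643), called without P7 (adjusted p = 0.0251), without F11 (adjusted p = 0.0461) and in DESeq2 (adjusted p = 0.00689). These fits called 3.17%, 0.378% and 2.25% of genes lower. From pregnancy day 18.5 to lactation 0% of genes were called higher or lower in ML cells. In basal cells the differences of Atp1b1 were between −0.30 and 0.39 (adjusted p = 0.854 to 0.952).

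No pump subunit gene, Atp1b1 included, was called in any class or stage step by edgeR, of 5 tested in basal, 4 in LP and 3 in ML cells. In 3 of these 9 comparisons (basal and ML cells from day 12.5 to 18.5, and ML cells into lactation) 0% of all genes were called. In the others 0.337% to 5.05% of all genes were called higher and 0.0824% to 5.69% lower. At such shares 3 to 5 tested genes need hold no call. Nothing particular to pump genes can therefore be read from any of the 9. In each class and step the unadjusted p of 0 to 2 pump genes was under 0.05, and DESeq2 called 0 or 1. Shares of all genes were taken for basal and ML cells at day 12.5, all classes at day 18.5 and ML cells in lactation. There 6.16% to 22.3% of all genes had an unadjusted p under 0.05 (edgeR), and DESeq2 called 0.186% to 7.14%.

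Slc12a2 was the second of the 5 with an ML bias. ML cells had the highest level in 16 of 16 libraries, the intervals were apart in 14, and the ratio to the next class had a median of 7.36 (1.004 to 41.9). C57BL/6 ML cells had 560 CPM at postnatal day 5, 1505 before puberty, 638 in terminal end buds, 801 in ducts and 4515 in the adult (interval 4494 to 4536), against 408 in adult SWISS. FVB/NJ ML cells had 612 (A10), 364 (P7) and 1382 CPM (D12) in adults, 258 (H) and 210 (G) at day 12.5, 806 (F4) and 899 (B4) at day 18.5, 97.3 (F11) and 104 (D6) in lactation and 139 post-involution. The ML level at day 12.5 and in lactation was below each adult library, and at day 18.5 it lay among them. The share of all genes that separate in this way was not counted. Strain cannot be told apart from the single library in which each of C57BL/6 and SWISS adults was seen.

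The day 12.5 and lactation steps of ML Slc12a2 were not called with all libraries (−1.82, SE 0.61, adjusted p = 0.105, and −2.89, SE 0.69, adjusted p = 0.445). Both were called without P7 (−2.22, adjusted p = 0.00322, and −2.88, adjusted p = 0.0177) and in DESeq2 (adjusted p = 0.0166 and 0.00423). Without P7 5.67% and 0.0839% of ML genes were called lower at these steps, and by DESeq2 3.22% and 0.0847%. Endothelial markers in the ML class summed to 12.4 (F11, 3 of 5 detected) and 75.9 CPM (D6, 5 of 5) in lactation against 0.992 (F4) and 0.942 (B4) at day 18.5, and their part in the lactation step was not tested. In the 2 lactation libraries the intervals of ML and basal cells overlapped, at 97.3 against 96.9 CPM in F11 and 104 against 89.1 in D6. Slc12a2 had the most UMIs of the cation-chloride cotransporters in LP and ML cells in each of the 16 libraries, and in basal cells in 14. Its direction in ML cells between adult and lactation was opposite to that of Fxyd2 and Atp1b1, whose lactation values lay above each adult value. The difference between these genes was not tested.

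The other transport genes were taken from lists made with earlier results of these data known. They held 8 pump subunits, 7 FXYD genes, 9 cation-chloride cotransporters and 9 genes for kinases that control these or for kinase partners (Cab39, Cab39l). The other 15 were further sodium, potassium, chloride and water routes. A share of called genes above that of all genes therefore cannot be read as a trait of transport genes. In ML cells at pregnancy day 12.5, 8 of 28 tested genes were called against adults, 6 higher and 2 lower, leaving Fxyd2 out, where 4.08% of all 8752 genes were called higher and 3.05% lower. Their median log2 difference was 0.16, beside −0.05 over all genes. DESeq2 called 9 (7.14% of all genes), and 16 had an unadjusted p under 0.05 (22.3% of all genes). Without H or without G, 3 genes were still called (Wnk4, Slc12a7 and Aqp5), without F4, B4, F11 or D6 5 were, and without P7 13 were. Other markers moved with this comparison: in the ML class erythroid markers summed to 284 and 288 CPM at day 12.5 against 24.4 to 68.5 in adults, immune markers to 23.2 and 35.7 against 1.76 to 4.63, and the 10 ML markers to 3387 and 3471 against 6601 to 7356. Their part in the differences was not tested.

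Wnk4, a kinase that governs cotransporters and channels through its partner Stk39, shared the lowest adjusted p of the list with Aqp5. ML cells had 3.02 (A10), 1.49 (P7) and 3.36 CPM (D12) in adults and 92.9 (H) and 94.9 (G) at day 12.5, a rise of 4.99 on the log2 scale (SE 0.53, adjusted p = 0.000287). It stood at 327 (F4) and 335 CPM (B4) at day 18.5, at 172 (F11) and 471 (D6) in lactation and at 34.9 post-involution, while LP and basal cells of these libraries stayed at 5.75 CPM or less. The potassium-chloride cotransporter gene Slc12a7 rose by 3.80 (adjusted p = 0.00349), from 0.923, 1.19 and 0.771 CPM in adults to 15.48 (H) and 12.3 (G). In these small ML classes 3 UMIs would give 3.87 (H) and 3.35 CPM (G). Both calls held in all 16 alternatives. Neither gene overlapped between adult and later ML cells, and the share of all genes without overlap was not counted.

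The epithelial sodium channel subunit genes Scnn1b and Scnn1g rose as well. Scnn1b went from 4.83 (A10), 35.4 (P7) and 8.20 CPM (D12) to 114 (H) and 118 (G), a log2 difference of 3.00 (adjusted p = 0.012), and then 238 (F4), 261 (B4), 31.1 (F11) and 47.9 (D6). Scnn1g went from 1.26, 10.4 and 0.701 CPM to 24.5 and 34.6 (3.19, adjusted p = 0.0497), and its call held in 4 of 16 alternatives. Without P7, which had the highest adult level of both, the differences were 4.02 for Scnn1b and 4.67 for Scnn1g, and without D12 Scnn1g was at 2.58 and not called (adjusted p = 0.0819). The third subunit, Scnn1a, had 22.9 to 38.2 CPM in adult ML cells and 23.2 and 40.2 at day 12.5. The ML cells of day 12.5 thus had high Scnn1b and Scnn1g beside an Scnn1a that was already present.

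Fxyd4, known from the kidney collecting duct and the colon, was the other FXYD gene higher in ML cells at day 12.5 than in adults. It stood at 0.797 (A10), 0.595 (P7) and 19.7 CPM (D12) in adults, 95.5 (H) and 121 (G) at day 12.5, 538 (F4) and 319 (B4) at day 18.5, and at 2.07 (F11) and 3.99 (D6) in lactation, below the 6.21 and 11.98 CPM that 3 UMIs would give there. The rise at day 12.5 was 3.82 (SE 1.04, adjusted p = 0.0486) and held in 7 of 16 alternatives. Without D12, the 1 adult library with a sizeable level, it was 6.99 (adjusted p = 0.000128). Before pregnancy Fxyd4 was not particular to ML cells. In D12 basal (23.7 CPM) and LP cells (22.6) were above ML cells, and in adult C57BL/6 basal cells had 18.2 against 12.7 in ML. ML cells led in terminal end buds, pubertal ducts and A10. Fxyd2 and Fxyd4 thus both stood high in late pregnancy, while in lactation Fxyd2 still did and Fxyd4 did not (log2 −7.04 from day 18.5, adjusted p = 0.455). The difference between the genes was not tested.

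The falls in ML cells were Fxyd6 and Aqp5, an apical water channel of secretory glands. Aqp5 stood at 412 (A10), 1159 (P7) and 666 CPM (D12) in adult ML cells and at 9.03 (H) and 6.70 (G) at day 12.5, a log2 difference of −6.53 (adjusted p = 0.000287) that was called in all 16 alternatives. Aqp5 remained at 2.97 to 18.6 CPM at day 18.5 and in lactation, and post-involution ML cells had 125. The values of F4 (2.97) and D6 (3.99) lay at and below the level of 3 UMIs there (2.97 and 11.98 CPM). At day 12.5 that level was 3.87 (H) and 3.35 CPM (G), so Aqp5 rested on few UMIs there too. In all 9 libraries up to the adult stage Aqp5 had the most UMIs of its list in ML cells, with 1241 CPM in adult C57BL/6, and in the 6 of pregnancy and lactation Ano1 had. The kinase gene Wnk2 rose by 1.81 (adjusted p = 0.0363), from 5.06 to 9.67 CPM in adults to 32.3 and 23.4, and was called in 8 of 16 alternatives.

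**Figure D4:**
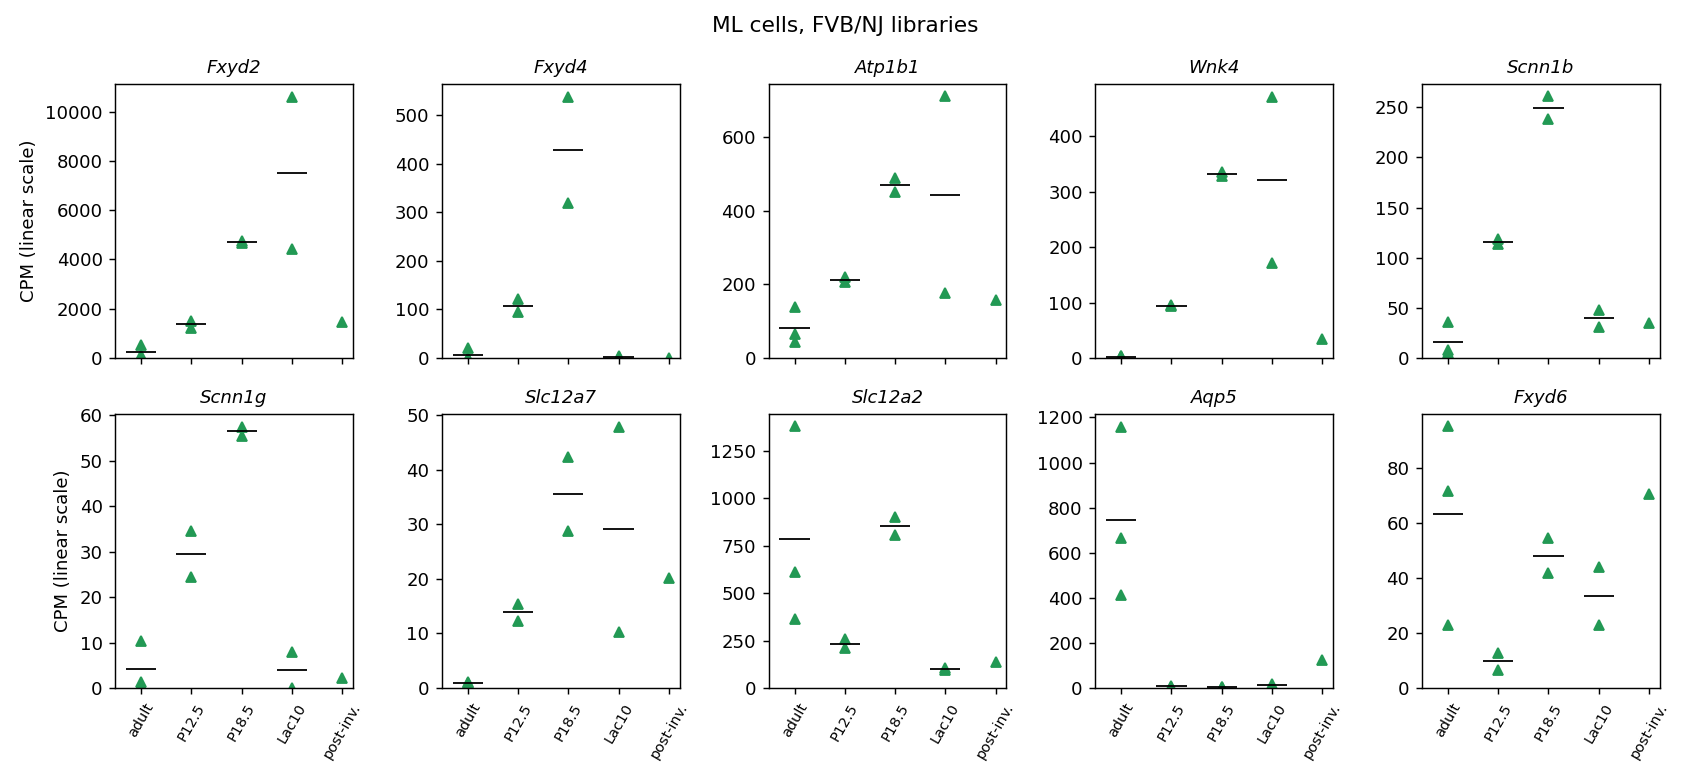
Levels of 10 transport genes in ML cells of the FVB/NJ libraries, in CPM outside the milk list on linear axes from 0, one point per library and the stage mean as a line. Fxyd2, Wnk4 and Slc12a7 stay above every adult value from pregnancy day 12.5 to post-involution, Fxyd4 and Scnn1b are highest at day 18.5, and Aqp5 stays below every adult value after day 12.5.

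In LP cells at pregnancy day 12.5, 10 of 39 listed genes were called, 1 higher and 9 lower, where 5.05% of all 13947 genes were called higher and 5.69% lower. They had a median log2 difference of −0.76 beside 0.03 over all genes. The gene called higher was Kcnn4, a calcium-activated potassium channel, with 77.2 (A10), 114 (P7) and 54.8 CPM (D12) in adults and 185 (H) and 177 (G) at day 12.5 (1.31, adjusted p = 0.0356). Aqp5 fell from 133, 419 and 211 CPM to 7.27 and 7.01 (−4.92, adjusted p = 0.00446), as it did in ML cells. Scnn1b went the other way than in ML cells, from 31.9, 179 and 26.0 CPM to 3.77 and 3.30 (−4.17, adjusted p = 0.0113, or −3.04 without P7), and Scnn1a fell by 2.15 (adjusted p = 0.0311). The kinase genes Stk39 (−1.66, adjusted p = 0.0168) and Wnk2 (−2.85, adjusted p = 0.0455) fell too, Wnk2 against its rise in ML cells. The difference between classes was not tested. Markers moved with this comparison too: in the LP class the 7 LP markers summed to 1638 (H) and 1663 CPM (G) against 7048 to 18533 in adults, and immune markers, with 5 of 6 detected, to 11.8 and 9.18 against 5.45 to 6.34. Their part in the called differences, Fxyd6 included, was not tested.

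Aqp1 in LP cells, at 2.76, 10.2 and 19.9 CPM in adults, was at 0.0523 (H) and 0.0340 (G) at day 12.5, below the level of 3 UMIs in each library, and its fall (adjusted p = 0.0028) was called in all 16 alternatives. The other 2 falls were Fxyd5 (−2.96, adjusted p = 0.0064) and Fxyd1 (−2.45, adjusted p = 0.0484), both at 5 CPM or less in these LP cells. Without H or without G, Aqp1 was the 1 listed LP gene still called, and without F4 or B4 6 were. Kcnn4 and Fxyd1 were each called in 7 of 16 alternatives, and Scnn1a and Wnk2 in 10. Without A10 Wnk2 was at −1.94 and Fxyd1 at −1.49, neither called (adjusted p = 0.0959 and 0.219). From day 12.5 to 18.5 no listed gene was called in any class with edgeR, while the unadjusted p was under 0.05 for 10 LP, 5 basal and 4 ML genes (16.1%, 8.70% and 6.65% of all genes in these classes). The DESeq2 calls were 5 in LP and 0 in the other classes, where DESeq2 called 6.20% of all LP, 1.28% of basal and 0.608% of ML genes.

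**Figure D5:**
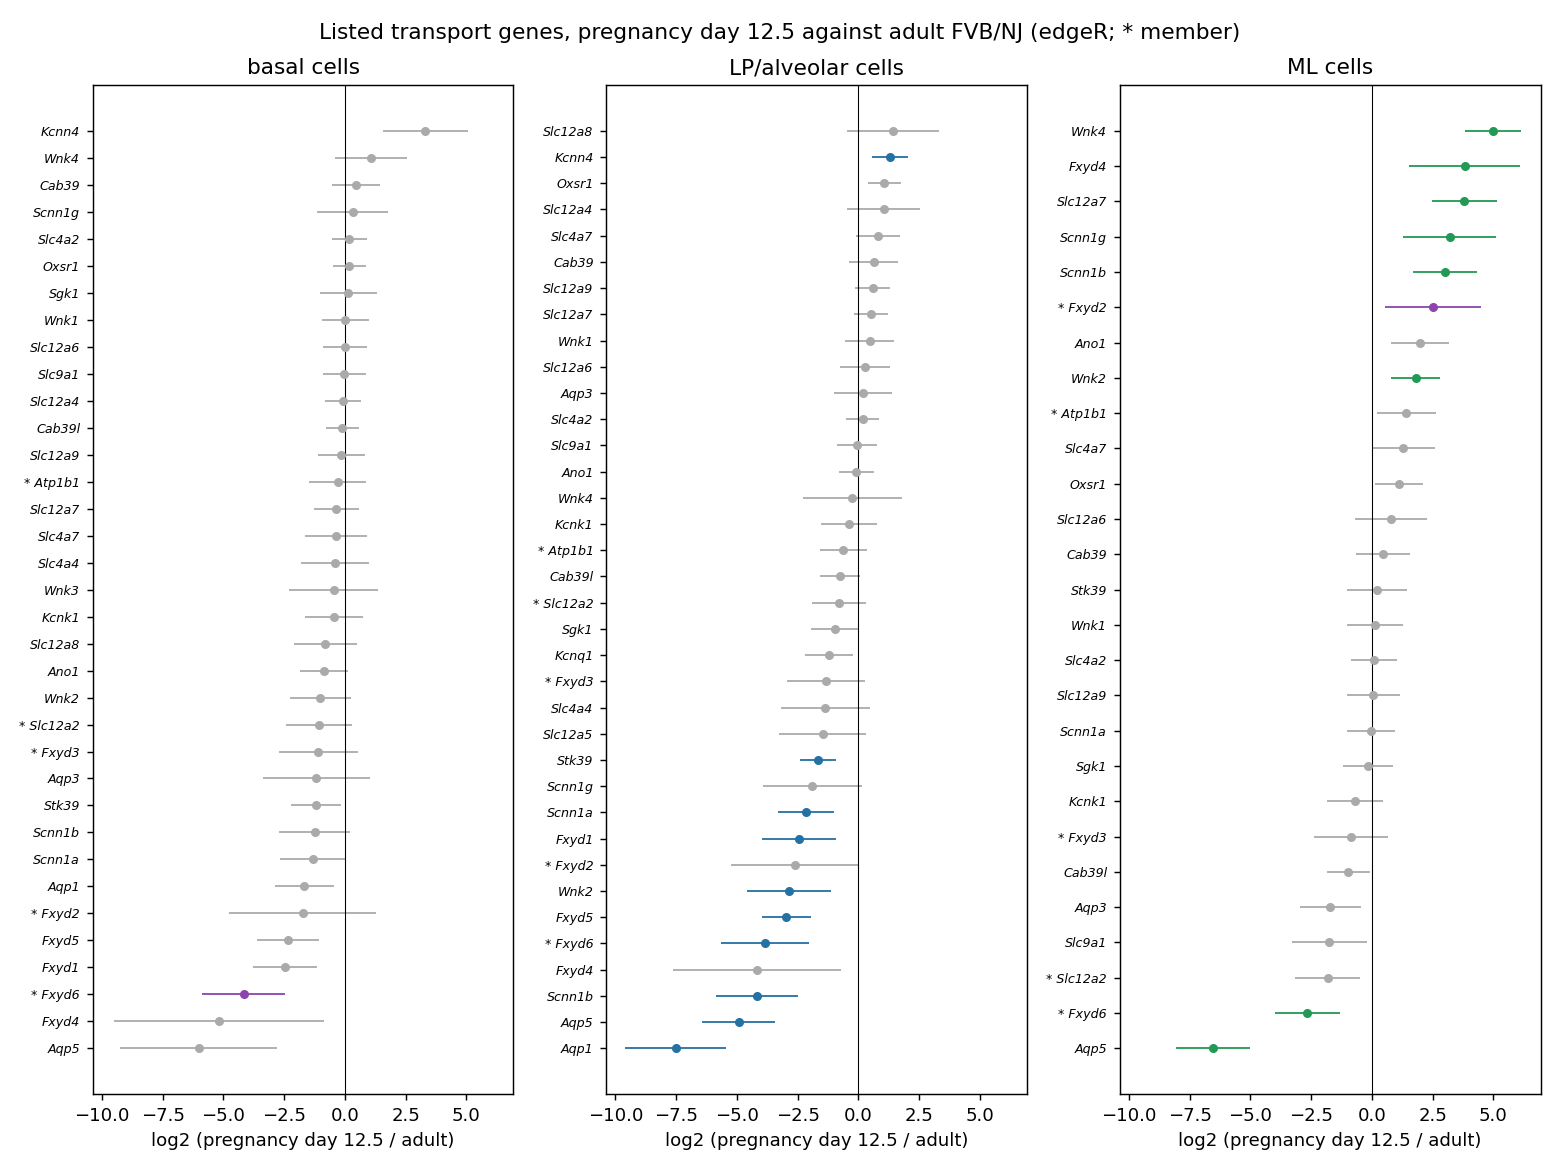
Fitted log2 difference between pregnancy day 12.5 and adult FVB/NJ with its 95% interval (edgeR) for the listed genes tested, by class, with Atp1b1 as the pump subunit plotted, with called genes in the class colour, the basal Fxyd6 and ML Fxyd2 descriptions in purple and members starred. The purple intervals are no test, because these genes were picked on this contrast. In ML cells Wnk4 is at 4.99 and Aqp5 at −6.53, and in LP cells 9 called genes lie below 0. The fitted LP value of Aqp1 depends on the prior count because day 12.5 held 3 UMIs or fewer.

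Leaving Fxyd6 out, no listed basal gene was called at day 12.5 by edgeR. The unadjusted p of 8 of 38 was under 0.05 (14.3% of all genes), and 5 were called by DESeq2 (4.59% of all genes). Basal cells of lactation had 3 called genes of 38, all higher than at day 18.5, where 0.689% of 13350 genes were called higher and 0.0824% lower: Aqp1, a water channel of endothelium and red cells, Fxyd1 (phospholemman, of heart and muscle) and Fxyd5 (dysadherin). Aqp1 stood at 0.602 (F4) and 0.727 CPM (B4) at day 18.5 and at 56.6 (F11) and 93.9 (D6) in lactation (6.87, adjusted p = 0.00359), Fxyd1 at 1.81 and 4.05 against 44.1 and 43.1 (3.99, adjusted p = 0.0192), and Fxyd5 at 0.516 and 0.727 against 10.6 and 10.5 (4.15, adjusted p = 0.0185). The same 3 genes were called higher in LP cells, where Aqp1 reached 34.4 and 40.3 CPM (adjusted p = 0.00453), together with the bicarbonate cotransporter gene Slc4a7 (1.92, adjusted p = 0.049), while Aqp3 fell (−2.80, adjusted p = 0.0392). Without F4 or B4 none of these lactation genes was called in either class, and without D6 1 was in basal and 2 in LP cells. With all libraries that made 5 called of 39 in LP cells (4 higher, 1 lower), where 2.41% of all genes were called higher and 0.911% lower, with a median of 0.04 beside −0.03 over all genes.

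Markers of other cell types moved with these lactation results. In basal cells 5 endothelial markers, all 5 with UMIs, summed to 46.0 and 126 CPM in lactation against 2.75 and 3.63 at day 18.5. Immune markers summed to 91.1 to 157 against 10.9 to 12.5 CPM, mural ones to 63.3 to 88.2 against 12.98 to 22.9, and adipocyte ones, with 2 of 3 detected, to 8.62 and 8.63 against 0.0860 and 0.623. Erythroid markers, with 2 (F11) and 3 (D6) of 4 detected, summed to 49.9 (F11) and 13.4 CPM (D6) against 0.258 (F4) and 1.14 (B4). In LP cells they summed to 46.0 and 41.6 CPM against 2.44 and 1.82, and endothelial markers to 40.0 and 46.7 CPM against 2.70 and 2.73. D6 alone held 2259 cells that carried markers of other types. Their part in the higher Aqp1, Fxyd1 and Fxyd5 was not tested. No listed ML gene was called from day 18.5 to lactation by edgeR, although the unadjusted p of 8 of 28 was under 0.05 (6.16% of all genes) and 1 was called by DESeq2 (0.186%).

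Sgk1, a hormone-induced kinase, had the highest mean of the kinase list in all 3 classes and led in 15 basal, 13 LP and 14 ML sums of 16, at 46.5 to 1065 CPM in basal, 66.4 to 707 in LP and 94.2 to 756 in ML cells. Among the further routes the chloride channel gene Ano1 had the highest mean in basal cells (81.0 CPM, highest in 5 of 16 libraries), the potassium channel gene Kcnk1 in LP cells (180, in 5 of 16) and Aqp5 in ML cells (349, in 10 of 16). ML Ano1 had 66.3 (A10), 225 (P7) and 105 CPM (D12) in adults and 486 (H) and 512 (G) at day 12.5, a log2 difference of 1.97 that was not called (adjusted p = 0.052) but was without P7 (2.40, adjusted p = 0.00711). With all libraries none of these leaders was called in a class in which it led, other than Aqp5.

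Genes whose pattern was most like that of each member were taken over 49 sums of cells by library and class, among 7785 genes with enough counts, by Pearson correlation of log2(CPM + 5). These sums share libraries and depth, so the values are descriptions. Fxyd2 was nearest to Fads6 (r = 0.909), Apof (0.908), Vwf (0.882), Trp53inp2 (0.867) and Agtrap (0.858). Fxyd3 was nearest to Dock9 (0.838), Efna5 (0.781) and Itgb8 (0.779), and Fxyd6 to Cbarp (0.820), Dalrd3 (0.816) and Mapk3 (0.788). Atp1b1 was nearest to Samd10 (0.898), Gdpd1 (0.882) and Cdc42ep1 (0.874). Slc12a2 was nearest to Capn8 (0.892), Ttc6 (0.891) and Prlr (0.873), the prolactin receptor gene and one of the markers that defined the ML class. Between members r ran from −0.50 (Fxyd2 with Fxyd3) to 0.62 (Fxyd2 with Slc12a2), and Fxyd6 was at 0.11 with Fxyd2, its neighbour on the chromosome.

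After involution the members did not all stand where the adult libraries stood. In the 1 post-involution library ML Fxyd2 (1467 CPM), Wnk4 (34.9) and Slc12a7 (20.1) were above all 3 adult FVB/NJ libraries, and ML Atp1b1 (158) was just above the highest of them, P7 (139). ML Slc12a2 (139) and Aqp5 (125) were below all 3. Basal Fxyd6 (63.3), ML Fxyd6 (70.4), LP Fxyd3 (1852) and basal Fxyd3 (843) lay inside the adult range, and LP Fxyd6 (44.7) just below it. With a single library there was no test, and stage could not be told apart from processing. In the embryonic mammary epithelium the levels were 2.05 (Fxyd2), 198 (Fxyd3), 15.1 (Fxyd6), 18.5 (Atp1b1) and 29.9 CPM (Slc12a2), so that Fxyd3 already had more UMIs than the other FXYD members before birth.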

How the data were processed

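The authors deposited raw UMI counts per gene and cell barcode from 10x Chromium 3′ libraries, made with Cell Ranger (3.1.0 per the submitters' processing notes, an earlier release in most file headers) on build mm10. The members and lists were chosen with earlier results of these data known. Cell filters followed the study (above 500 genes, a mitochondrial limit, upper limits on genes and counts against doublets), and no doublet caller was run. A cell was basal if its basal minus luminal marker score was 0.25 or more, luminal at −0.5 or less, and ML or LP by a 0.7 limit on the ML score over the library's basal median. Cells with another type's score of 1.5 or more were left out. Counts were summed per library and class (20 or more cells). Libraries pooled animals, so p-values measure the spread between libraries, which differed well beyond sampling noise (chi-square per gene 2.34 to 312).

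Stage differences were tested with edgeR 4.0.16 (TMM, filterByExpr, quasi-likelihood, 1 fit per class over 9 FVB/NJ libraries, Benjamini-Hochberg over all genes, called at adjusted p under 0.05). SEs are the log2 difference over the root of F. Alternatives were DESeq2 1.42.0, no TMM, no filter, the milk list left out, cells with 1000 genes, a stricter assignment, scanpy 1.11.5 clusters, each library left out and, added after seeing the data, a replicate block. The fits were checked on simulated data. A listed gene that is no member is named where it was called or had the most UMIs of its list, except 1 gene that is not reported here. Likeness used genes at 20 CPM in 5 or more sums. Skin was not analysed further.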

Additional observations from a re-analysis of the deposited data

Results flagged for a closer look

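Several members stood in opposite directions in different classes of the same libraries, with every library of a stage on the same side of every library of the other. The difference between the classes was not tested in any of these cases. For these and the other cases without overlap given above, the share of all genes that separate in this way was not counted. So few libraries per stage separate easily, and no result is read from it. From pregnancy day 12.5 to 18.5 the mean of Fxyd3 was slightly higher in basal cells, at 402 CPM after 354. It was lower in LP cells, at 276, and in ML cells, at 126. Against adults, Atp1b1 at day 12.5 was higher in ML cells, with a mean of 212 CPM, and lower in LP cells, with 65.4, and at day 18.5 it was again higher in ML cells (469) and lower in LP cells (47.8) than at day 12.5. From day 18.5 to lactation Slc12a2 was higher in basal cells (93.0 CPM) and lower in LP (70.4) and ML cells (101).

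The E18.5 skin library, which no comparison used, held all 5 members above the level of 3 UMIs (0.0595 CPM). Over its 9025 cells Fxyd6 stood at 95.8 CPM, Fxyd3 at 25.3, Atp1b1 at 21.4, Slc12a2 at 12.9 and Fxyd2 at 8.71.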

How the results depend on the processing

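Each result was recomputed under the alternatives, and all counts below are of listed genes called, leaving out basal Fxyd6 and ML Fxyd2. In basal cells at day 12.5 the 0 became 5 with DESeq2, 6 with no filter on low counts and 2 with the stricter assignment, and 0 to 3 with 1 library left out. In basal cells at day 18.5 the 0 became 5 with no filter. In basal lactation cells the 3 became 5 with no filter and 1 with the stricter assignment, and 0 to 4 with 1 library left out. In LP cells at day 12.5 the 10 ranged from 1 to 13 with 1 library left out. At day 18.5 the LP 0 became 5 with DESeq2 and 7 with no filter, and ranged from 0 to 5 with 1 library left out (5 without P7). In LP lactation cells the 5 became 8 with DESeq2, 23 (3 higher, 20 lower) with no TMM, which set the median of all genes to −1.77, 10 with no filter and 3 with cells of 1000 genes, and ranged from 0 (without F4 or B4) to 10 (without P7). In ML cells at day 12.5 the 8 became 5 with cells of 1000 genes, a fit without D6, and ranged from 3 (without H or G) to 13 (without P7). In ML lactation cells the 0 became 1 with DESeq2 and 4 with no filter, and ranged from 0 to 2. With no filter more genes are tested. The cause of the other moves was not tested.

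The log2 difference of ML Fxyd2 at day 12.5 ranged from 1.98 to 4.17 with 1 library left out, the highest without D12. The basal Fxyd6 step into lactation was −0.23, 0.41 without D6 and −1.43 without F11, and the ML Fxyd2 step into lactation was 0.86, or −0.74 with cells of 1000 genes and so without D6 (0.19 without D6 alone). Of 791 recomputed steps and median levels of the 5 members, most had no call to lose, 25 became called, 5 lost the call, 2 reversed and 1 moved. The study's own list numbers the replicates without saying what a number shares, so a fit with the replicate number as a block was added after seeing the data. D12, the only library numbered 3, does not count in it. The block gave 6 in place of 10 called listed genes in LP cells at day 12.5, 2 in place of 0 at day 18.5, 1 in place of 0 in ML lactation cells, and a log2 difference of 4.31 for ML Fxyd2 at day 12.5. Not called with it were ML Fxyd6 at day 12.5 (adjusted p = 0.0534), LP Stk39 (0.0567), Scnn1a (0.0783), Kcnn4 (0.115) and Fxyd1 (0.0564) at day 12.5, and LP Slc4a7 in lactation (0.0813). Same-numbered libraries deviated from their group means with correlations of −0.179 to 0.195. In stages with 2 libraries the deviations mirror each other, so few of these values are independent. They cannot tell whether a number stands for a shared day or batch. With 2 libraries at most stages and 131 to 288 ML cells in each, differences as large as a log2 of −7.04 (ML Fxyd4 into lactation) were not called.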

Other observations

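Cells left out for their markers of other types also held member UMIs, in 15 libraries with 20 or more such cells. Fxyd6 there ranged from 6.19 (D6) to 140 CPM (P7) and Fxyd3 from 14.01 (P7, on 2 UMIs) to 529 (postnatal day 5). Slc12a2 reached 674 CPM in adult C57BL/6, the library with the highest ML level. These cells were of mixed types, and free epithelial transcripts cannot be told apart from their own.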
